A study of Schizosaccharomyces pombe with 36 samples.

Results

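Transcript levels of the genes that encode the TTT complex and its Rvb partners were measured in fission yeast, *Schizosaccharomyces pombe*. They are *tti2* (SPBC1604.17c), *tti1* (SPCC622.13c), *tel2* (SPAC458.03), *asa1* (SPAC1006.02), *rvb1* (SPAPB8E5.09) and *rvb2* (SPBC83.08). They were taken by their identifiers, 6 of the 5129 genes in the count table, and all 6 passed the low-count filter in every comparison. Tel2, Tti1 and Tti2 form the Triple-T (TTT) complex, a cochaperone of Hsp90 that matures the phosphatidylinositol 3-kinase-related kinases (PIKKs). In fission yeast these are Tor1, Tor2, Rad3, Tel1 and the inactive members Tra1 and Tra2, which sit in the transcription coactivators SAGA and NuA4. Rvb1 and Rvb2 are AAA+ ATPases that form mixed rings, act with TTT and Hsp90 in PIKK assembly, and are also subunits of the chromatin remodellers INO80 and SWR1. Asa1 is a WD-repeat protein that in budding yeast was purified with TTT, Rvb1, Rvb2 and Tra1 in the ASTRA complex.

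The study asked how Tra1 and Tra2 enter SAGA and NuA4, and what TTT contributes. It comprised 36 RNA-seq libraries here, 3 independent cultures in each of 12 conditions, grown in rich YES medium at 32 °C. In *tti2-CKO* cells (cre-ER lox-tti2-lox) and *tra2-CKO* cells (cre-ER lox-tra2-lox), β-estradiol activates the CreER recombinase, which excises the gene between the lox sites, and DMSO is the solvent control. The *creER* strain (cre-ER) carries the recombinase without a floxed gene. Cultures received β-estradiol at 1 µM, or DMSO, for 21 h in *tra2-CKO* and *creER* but for 18 h in *tti2-CKO*, so that the *tti2-CKO* cultures differ from those of the other strains in time as well as genotype. The remaining strains grew in YES without either agent. They were *tra1*Δ, *tra1-Sptra2* (labelled tra1-spTra2) and *tra1-Sctra1* (tra1-scTra1), whose Tra1 carries in a stretch the residues of *S. pombe* Tra2 or of *S. cerevisiae* Tra1, *spt20*Δ, *spt20-HIT*Δ (spt20-HITD-PK3, so tagged as well as deleted for the HIT region) and the wild type (WT). Spt20 is the SAGA subunit that holds Tra1, and HIT is its Tra1-contacting region. The labels give 1 strain number per genotype, so each genotype is 1 strain.

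Libraries held 4811942 to 9724398 counts. Levels are given as CPM, counts scaled to the library's total with TMM factors set over all libraries. To be called changed, a gene had to reach an adjusted p of 0.01 or less together with a change of 1.5-fold or more in edgeR's quasi-likelihood test of 3 libraries against 3, and fold changes are on the log2 scale with their standard error (SE). WT libraries serve as control for all 5 mutants and for *creER* with DMSO, and the *creER* DMSO libraries for both floxed strains, so these comparisons are not independent. The levels of the targeted genes matched the labels. In *tra2-CKO*, *tra2* averaged 7.54 ± 1.22 CPM with β-estradiol and 111 ± 8.90 CPM with DMSO (SD, n = 3 each). In *spt20*Δ, *spt20* stood at 5.10, 3.51 and 4.004 CPM, against 43.2, 44.7 and 36.4 CPM in WT. It was also below every WT library in *spt20-HIT*Δ, at 26.3, 33.4 and 24.2 CPM, and the cause was not tested. In the deletion strain *tra1*Δ, *tra1* averaged 0.459 ± 0.261 CPM, against 98.7 ± 4.73 CPM in WT.

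**Figure D1:**
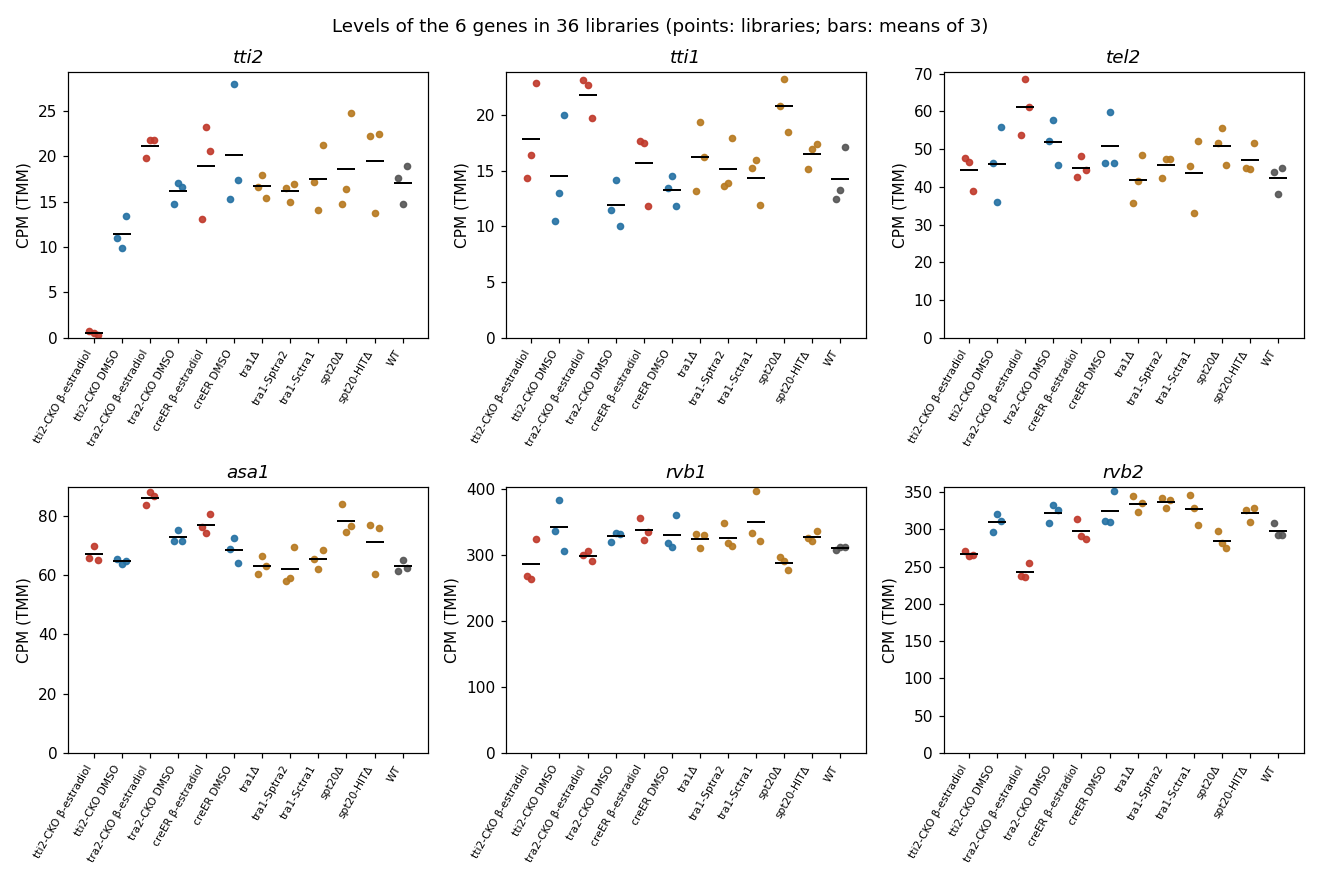
Level in CPM (vertical axis, from 0) of each of the 6 genes in the 12 conditions (horizontal axis). Points are libraries, bars are means of 3, red is β-estradiol, blue is DMSO, ochre is the mutants and grey is WT. In *tti2-CKO* with β-estradiol, *tti2* lies between 0.307 and 0.757 CPM, and *tra2-CKO* with β-estradiol has the highest mean of *tti2*, *tti1*, *tel2* and *asa1* and the lowest mean of *rvb2*.

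The 6 transcripts differed widely in abundance. Per kilobase of gene span in the ASM294v3 annotation, the WT level was 171 ± 1.40 CPM per kb for *rvb1* and 171 ± 5.46 CPM per kb for *rvb2* (SD, n = 3 each), at percentiles 87 and 87.1 of 5075 genes. Both encode subunits of a common ring. The WD-repeat gene *asa1* stood at 44.8 CPM per kb, near the middle of all genes at percentile 54.7. The TTT subunits were far lower, with *tel2* at 15.3 CPM per kb (percentile 18), *tti2* at 10.6 (percentile 12.2) and *tti1* at 3.03 (percentile 5.75). Counts of *tti1* ran from 61 to 194 per library, against 1419 to 3256 for *rvb1*, and the median spread between the cultures of a condition was 16.7% of the mean for *tti1*, 18.1% for *tti2*, 4.57% for *asa1*, 4.35% for *rvb1* and 3.97% for *rvb2*. Changes of *tti1* and *tti2* were accordingly measured less precisely than those of *rvb1* and *rvb2*.

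Across the 12 conditions most of these levels moved little. The ratio of the highest to the lowest condition mean was 1.23 for *rvb1*, 1.39 for *rvb2*, 1.39 for *asa1*, 1.46 for *tel2* and 1.83 for *tti1*. For *tti2* it was 38.9, and 1.31 once the *tti2-CKO* strain was set aside. The order of the conditions was similar for several genes at its upper end. *tra2-CKO* with β-estradiol gave the highest mean of *tti2* (21.1 CPM), *tti1* (21.8 CPM), *tel2* (61.1 CPM) and *asa1* (86.1 CPM), and the lowest of *rvb2* (243 CPM). In the full order of means, neighbouring conditions overlapped in their libraries at each of the 11 steps for *tti1*, *tel2* and *asa1*. Neighbours in a sorted order lie close by construction, so overlap at a step does not mean that more distant conditions overlap. The share of such steps over all genes was not computed. The steps without overlap were, for *rvb1*, the one between *tra2-CKO* with β-estradiol and WT, and for *rvb2* those between *tti2-CKO* with β-estradiol and *spt20*Δ and between *tra2-CKO* with β-estradiol and *tti2-CKO* with β-estradiol. The remaining steps of that kind belonged to *tti2*, whose mean was lowest in *tti2-CKO* with β-estradiol and next lowest in *tti2-CKO* with DMSO. The DMSO libraries of *tti2-CKO*, at 9.92 to 13.4 CPM, still overlapped those of *creER* with β-estradiol, at 13.1 to 23.2 CPM.

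Excision of *tti2*, which encodes the TTT subunit depleted in the study, was seen first in its own transcript. The β-estradiol cultures of *tti2-CKO* held 4, 5 and 2 counts of *tti2*, or 0.757, 0.562 and 0.307 CPM, against 75, 67 and 92 counts, or 10.96, 9.92 and 13.4 CPM, in the DMSO cultures. The groups lay far apart, and no treated library came near any DMSO library. *tti2* fell by 4.39 on the log2 scale (SE 0.34, adjusted p = 1.63e-05, edgeR), to 0.0476 of the DMSO level, and it was called with every alternative and with every library left out. In a bulk culture, fewer cells with the gene and less transcript in each cell cannot be told apart. It was the only one of the 6 genes called in this comparison, in which 12.8% of the 4920 genes tested were called. The same treatment left *tti2* at 13.1, 23.2 and 20.5 CPM in *creER*, against 15.2, 27.9 and 17.4 CPM with DMSO. The *creER* groups overlapped, with culture 2 highest in each. The difference between the strains in the response to β-estradiol, tested as an interaction, was −4.29 for *tti2-CKO* minus *creER* (SE 0.52, adjusted p = 4.47e-04, edgeR), where 2.43% of genes were called. For *tti2-CKO* minus *tra2-CKO* it was −4.75 (SE 0.32, adjusted p = 6.64e-07, edgeR), where 6.11% were called.

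Before any excision was induced, *tti2* lay lower in *tti2-CKO* than in *creER*, short of the threshold. With DMSO, *tti2* averaged 11.4 ± 1.799 CPM in *tti2-CKO* and 20.2 ± 6.78 CPM in *creER* (SD, n = 3 each), and the libraries did not overlap. The log2 difference was −0.82 (SE 0.26), which did not pass the test (adjusted p = 0.249, edgeR). It ranged from −0.98 to −0.51 over the alternatives, with adjusted p between 0.0295 and 0.719. The percentage of genes called in this comparison was 0, with edgeR calling 0 of 4888 genes, of which 710 had an unadjusted p under 0.05, and DESeq2 calling 27 genes. Without *creER* DMSO replicate 1 edgeR called 247 genes, and with any other single library left out at most 5, against 7 with the replicate block and 13 in a single fit of all libraries. In that comparison 1 of the 6 genes, *tti2*, had groups that did not overlap, against 16.9% of all genes, and DESeq2 called none of the 6. The 18 h of the *tti2-CKO* cultures and the 21 h of the *creER* cultures cannot be told apart from the allele here.

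A gene beside *tti2* differed within *tti2-CKO* too. SPBC1604.16c, the second gene after *tti2* in ASM294v3, stood at 45.1, 43.4 and 48.1 CPM with β-estradiol in *tti2-CKO*, against 18.7, 27.5 and 22.6 CPM with DMSO. The β-estradiol libraries were above, and the DMSO libraries below, every one of the *creER* libraries, which held 37.6 to 41.3 CPM with β-estradiol and 32.5 to 37.1 CPM with DMSO. The *tra2-CKO* libraries, at 25.3 to 36.1 CPM with β-estradiol and 27.5 to 32.9 CPM with DMSO, lay nearer to the lower of these. SPBC1604.16c rose by 0.97 (SE 0.15, adjusted p = 9.17e-04, edgeR), and its interaction with *creER* was 0.76 (adjusted p = 0.0248, edgeR), short of the threshold. DESeq2 called that interaction (adjusted p = 0.00327) and that of *gpi16* (0.66, adjusted p = 0.00214), which edgeR did not (adjusted p = 0.0200). Against *tra2-CKO* the interaction of SPBC1604.16c was 0.93 (SE 0.22, adjusted p = 0.0114, edgeR), not called, but called by DESeq2 (adjusted p = 0.00138) and with the replicate block (adjusted p = 0.00795, edgeR). On the strand opposite to *tti2*, *gpi16* overlaps it by 567 bases in ASM294v3 and averaged 79.9 ± 10.1 CPM with β-estradiol and 56.4 ± 4.74 CPM with DMSO, a log2 change of 0.49 (SE 0.11, adjusted p = 0.00775, edgeR) that is below 1.5-fold. *gpi16* was also higher with β-estradiol in *tra2-CKO*, by 0.32 (SE 0.08, adjusted p = 0.0142, edgeR). *cmp7*, the nearest gene on the other side, averaged 15.6 ± 1.07 CPM with β-estradiol and 10.9 ± 1.28 CPM with DMSO, against 21.8 ± 3.51 CPM with β-estradiol and 16.9 ± 1.63 CPM with DMSO in *creER*. In *tra2-CKO* it averaged 23.4 ± 0.697 CPM with β-estradiol and 18.0 ± 0.874 CPM with DMSO, so that it lay higher with β-estradiol in each of these strains, with no overlap, and its interaction of *tti2-CKO* minus *creER* was 0.15 (adjusted p = 0.708, edgeR). Its log2 difference between the DMSO cultures of *tti2-CKO* and *creER* was −0.64 (SE 0.18, adjusted p = 0.247, edgeR), and that of SPBC1604.16c was −0.58 (SE 0.17, adjusted p = 0.248, edgeR). The part of the inserted lox cassette in these neighbouring levels was not tested.

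**Figure D2:**
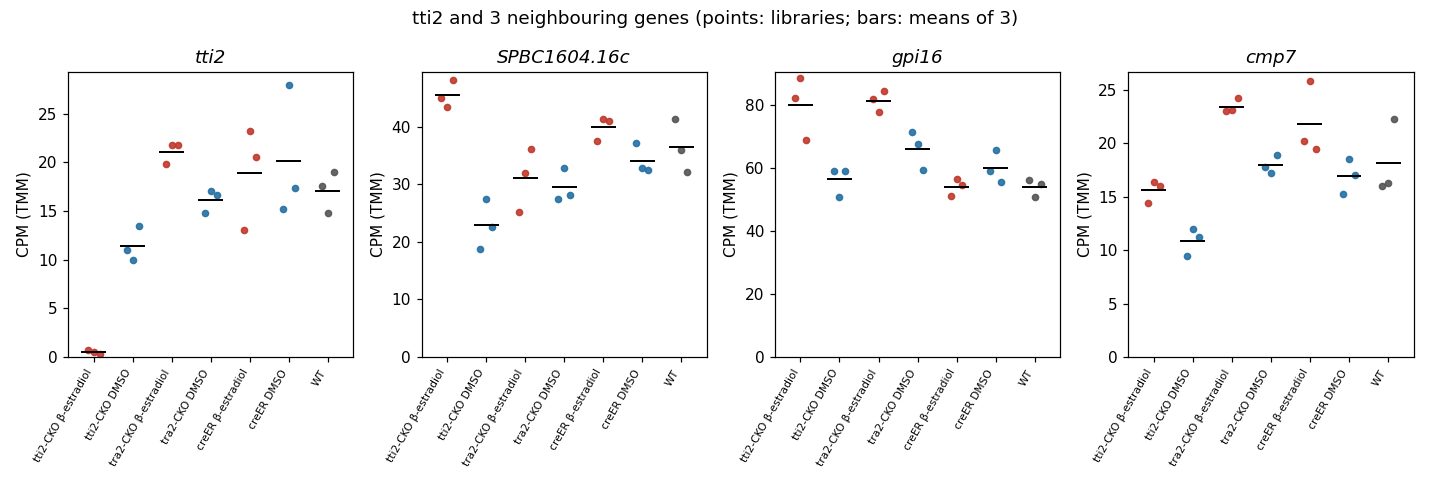
Level in CPM (vertical axes, from 0) of *tti2* and of the neighbouring genes SPBC1604.16c, *gpi16* and *cmp7* in the 3 strains with CreER and in WT (horizontal axis). Points are libraries and bars are means of 3. SPBC1604.16c is at 43.4 to 48.1 CPM in *tti2-CKO* with β-estradiol and at 18.7 to 27.5 CPM in *tti2-CKO* with DMSO.

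The transcripts of the other TTT subunits did not pass the test after loss of *tti2*. *tti1*, which encodes the largest TTT subunit, stood at 14.4, 16.4 and 22.9 CPM with β-estradiol, against 10.5, 13.02 and 19.98 CPM with DMSO. The groups overlapped, with the cultures numbered 3 high in each (log2 change 0.29, SE 0.25, adjusted p = 0.392, edgeR). For *tel2*, the subunit that binds PIKKs, values were 47.5, 46.7 and 39.0 CPM with β-estradiol and 46.3, 35.96 and 56.0 CPM with DMSO. They overlapped as well (−0.07, SE 0.15, adjusted p = 0.769, edgeR), and the log2 ratio of the means turned to 0.01 with CPM from library totals. The change of *asa1* was 0.04 (SE 0.08, adjusted p = 0.763, edgeR), with 65.3 to 70.0 CPM with β-estradiol and 63.6 to 65.5 CPM with DMSO.

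Of the ATPase genes, *rvb2* lay lower without *tti2*, short of the threshold, and *rvb1* was not separated. *rvb2* stood at 271, 264 and 266 CPM with β-estradiol, against 296, 321 and 311 CPM with DMSO. The groups did not overlap, and the treated cultures lay within a few CPM of each other. The log2 change was −0.23 (SE 0.08, adjusted p = 0.0363, edgeR, 0.00381 to 0.147 over the alternatives), under 1.5-fold. *rvb1* held 269, 264 and 325 CPM with β-estradiol and 336, 383 and 306 CPM with DMSO, and here treated culture 3 lay among the DMSO cultures (−0.28, SE 0.11, adjusted p = 0.0778, edgeR). Of the 6 genes, *tti2* and *rvb2* had groups that did not overlap, beside 50% of all genes tested, and the same 2 had an adjusted p of 0.05 or less, beside 37.7% of all genes. The interaction with *creER* was −0.29 for *rvb1* (SE 0.15, adjusted p = 0.261, edgeR). For *rvb2* it was −0.09 (SE 0.11, adjusted p = 0.667, edgeR), beside a change of −0.12 with β-estradiol in *creER* itself. The lower level of *rvb2* was thus not separated from the response of *creER*.

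Clients and partners of these proteins were followed as lists. Of the 6 PIKK genes, 0 were called after *tti2* loss by edgeR and by DESeq2, as were 0 of 7 genes of TOR complex partners, 0 of 10 INO80 genes and 0 of 7 SWR1 genes, and 2, 2, 3 and 1 genes of these lists had an unadjusted p under 0.05. The PIKK genes *tra1* and *tra2* had log2 changes of 0.26 (SE 0.09) and 0.26 (SE 0.08), with adjusted p of 0.0461 and 0.0256 (edgeR). In *creER* they changed by 0.14 and 0.17 with β-estradiol (adjusted p = 0.605 and 0.403, edgeR). Their interactions of *tti2-CKO* minus *creER*, 0.15 and 0.12, were not called (adjusted p = 0.507 and 0.494, edgeR). In *tra2-CKO*, *tra1* changed by 0.25 (adjusted p = 0.0176, edgeR). Core proteins of small nucleolar ribonucleoproteins (snoRNPs), whose assembly uses Rvb1 and Rvb2 in budding yeast and human cells, formed a further list. Of its 8 genes, 6 were called lower and none higher, at a median log2 change of −0.69, beside −0.01 over all genes tested and 7.13% of them called lower. *cbf5*, the pseudouridine synthase of H/ACA snoRNPs, averaged 473 ± 34.0 CPM with β-estradiol and 867 ± 59.4 CPM with DMSO (−0.89, SE 0.10, adjusted p = 1.25e-04, edgeR). The H/ACA proteins *gar1* (−0.80) and *nhp2* (−0.72) and the methyltransferase *fib1* of C/D snoRNPs (−0.66) were called as well, with adjusted p of 0.00102, 3.96e-04 and 0.00108 (edgeR). The count ran from 3 to 6 with 1 library left out, and *cbf5*, *gar1* and *nhp2* were called in each of those 6 fits, while *fib1*, *nop56* and *snu13* were not called without DMSO replicate 2 or without β-estradiol replicate 2. The difference from the other strains was not called for any of the 8 genes by edgeR, with a median interaction of −0.51 and 7 genes at an unadjusted p under 0.05 against *creER*, where DESeq2 called 1 (*cbf5*, −0.63), and a median of −0.23 and 2 such genes against *tra2-CKO*, where DESeq2 called 0. With DMSO the list already had a median of −0.24 in *tti2-CKO* against *creER*, with 0 genes called by edgeR and by DESeq2 and 1 at an unadjusted p under 0.05. In *tra2-CKO* the same list had a median of −0.42 and 0 genes called by edgeR, all 8 with an unadjusted p under 0.05 and 1 called by DESeq2.

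Loss of *tra2*, which encodes the PIKK of NuA4, was accompanied by a higher transcript level of *tti1*. *tti1* stood at 23.1, 22.7 and 19.7 CPM with β-estradiol in *tra2-CKO*, against 11.5, 14.2 and 10.04 CPM with DMSO. Every treated library was above every DMSO library, and the DMSO mean of 11.9 ± 2.09 CPM was the lowest of the 12 conditions. *tti1* rose by 0.89 (SE 0.16, adjusted p = 0.00326, edgeR), a 1.85-fold change, and it was the only one of the 6 genes called in *tra2-CKO*, where 10.1% of 4929 genes were called and 7.71% were called higher. The call rested on single libraries. It was lost without DMSO replicate 3 (0.78, adjusted p = 0.0117, edgeR), without β-estradiol replicate 1 (0.85, adjusted p = 0.0187, edgeR) and without β-estradiol replicate 2 (0.86, adjusted p = 0.0171, edgeR), within a range of 6.77e-05 to 0.0187 over all alternatives. In ASM294v3, *tti1* shares 58 bases with *gdh1* on the same strand, and reads that fall there would be assigned to neither gene in the counting mode used.

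The remaining TTT genes and *asa1* lay higher by less than 1.5-fold. *tti2* held 19.8, 21.8 and 21.8 CPM with β-estradiol in *tra2-CKO*, against 14.8, 17.1 and 16.6 CPM with DMSO, without overlap (0.41, SE 0.12, adjusted p = 0.0303, edgeR). *asa1* held 83.6, 88.2 and 86.6 CPM, against 71.5, 75.3 and 71.4 CPM with DMSO. These groups lay clearly apart with tight replicates, and the change was 0.27 (SE 0.06, adjusted p = 0.00886, edgeR), past the p threshold and below the minimum fold. With each alternative its adjusted p lay between 0.00917 and 0.0408. *tel2* held 53.6, 68.7 and 61.1 CPM, against 52.1, 57.8 and 45.9 CPM with DMSO, and the groups overlapped (0.25, SE 0.12, adjusted p = 0.116, edgeR).

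*rvb2* went the other way. It stood at 238, 236 and 254 CPM with β-estradiol in *tra2-CKO*, against 308, 333 and 326 CPM with DMSO. Its treated libraries held the 3 lowest values of *rvb2* in the series, all below every DMSO library. *rvb2* changed by −0.38 (SE 0.06, adjusted p = 0.00238, edgeR, 1.92e-06 to 0.0172 over the alternatives), or 0.766 of the DMSO level, which is past the p threshold and below the minimum fold. *rvb1* held 300, 306 and 291 CPM, against 320, 333 and 331 CPM with DMSO, without overlap (−0.11, SE 0.06, adjusted p = 0.168, edgeR), and its log2 ratio of means was −0.13 under TMM and −0.03 with library totals. In all, 5 of the 6 genes had groups that did not overlap in *tra2-CKO*, beside 54.9% of all genes, and 4 had an adjusted p of at most 0.05, beside 41% of all genes. Scaling by library totals in place of TMM moved every change in *tra2-CKO* by 0.11 and turned none of the 6 directions.

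A ratio within each library does not depend on that scaling. Counts of *rvb2* per count of *rvb1* averaged 0.813 ± 0.055 with β-estradiol in *tra2-CKO* and 0.982 ± 0.019 with DMSO (SD, n = 3 each), and the treated libraries, at 0.771 to 0.875, lay below all DMSO libraries, at 0.962 to 1.00. In *creER* the ratio was 0.879 ± 0.024 with β-estradiol and 0.981 ± 0.010 with DMSO, again without overlap. In *tti2-CKO* it was 0.942 ± 0.106 with β-estradiol and 0.911 ± 0.093 with DMSO, and the groups overlapped. Thus the ratio was lower with β-estradiol in *tra2-CKO* and in the strain that carries no floxed gene, and the share of *tra2* loss in it was not tested. With 3 libraries against 3, the smallest two-sided p of an exact permutation test is 0.1, and no test of the ratio is given.

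**Figure D3:**
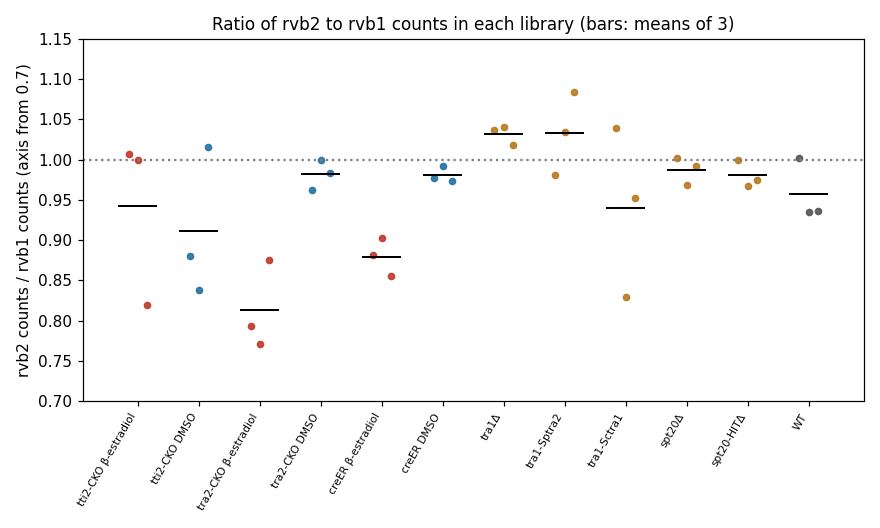
Counts of *rvb2* divided by counts of *rvb1* in each library (vertical axis, from 0.7, no unit) in the 12 conditions (horizontal axis). Points are libraries, bars are means of 3 and the dotted line marks equal counts. The 3 libraries of *tra2-CKO* with β-estradiol lie at 0.771 to 0.875, and the mutants grown without either agent average between 0.940 and 1.03.

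β-estradiol itself, with CreER but no floxed gene, changed none of the 6 genes past the threshold. In *creER* 0 of the 6 were called by edgeR and by DESeq2, none had an unadjusted p under 0.05, and 1.14% of 4904 genes were called, or 182 genes in place of 56 with the replicate number as a block. *asa1* held 76.2, 74.3 and 80.5 CPM with β-estradiol, against 68.8, 72.6 and 64.3 CPM with DMSO. It was the only one of the 6 whose groups did not overlap, beside 19.9% of all genes (0.17, SE 0.08, adjusted p = 0.458, edgeR). Changes of *tti1* (0.24, SE 0.20), *tel2* (−0.17, SE 0.13) and *rvb2* (−0.12, SE 0.09) had adjusted p of 0.706, 0.644 and 0.656 (edgeR). Of the PIKK, Hsp90, TOR partner, INO80, SWR1 and snoRNP lists, edgeR and DESeq2 called 0 genes in *creER*, with 4 Hsp90 genes and 2 SWR1 genes at an unadjusted p under 0.05.

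The β-estradiol response of *tra2-CKO* was then set against that of *creER* in a direct test of the difference. By edgeR and by DESeq2 0 of the 6 interactions were called, and 3 had an unadjusted p under 0.05. They were those of *tti1* (0.64, SE 0.26, adjusted p = 0.205), *tel2* (0.41, SE 0.18, adjusted p = 0.234) and *rvb2* (−0.28, SE 0.10, adjusted p = 0.164), all from edgeR. Over all genes edgeR called 0.384%, or 19 genes, against 83 with the replicate block, 105 by DESeq2 and 1 to 12 with 1 library left out. The interaction of *asa1* was 0.08 (SE 0.09, adjusted p = 0.656, edgeR), so that its difference in *tra2-CKO* was not separated from that in *creER*. For *tti2-CKO* minus *tra2-CKO*, *tti1* had −0.55 (SE 0.33, adjusted p = 0.265, edgeR) and *rvb2* had 0.21 (SE 0.09, adjusted p = 0.122, edgeR). The call of *tti1* in *tra2-CKO* is therefore not shown to be particular to that strain.

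Hsp90, the chaperone that TTT serves, and its cochaperones were represented by 6 genes, of which 2 were called higher and none lower in *tra2-CKO*, at a median of 0.45 beside 0.01 over all genes and 7.71% of them called higher. *hsp90* averaged 2524 ± 115 CPM with β-estradiol and 1101 ± 90.3 CPM with DMSO (1.22, SE 0.08, adjusted p = 3.12e-05, edgeR). *sti1*, the cochaperone that bridges Hsp70 and Hsp90, averaged 384 ± 62.1 CPM with β-estradiol and 164 ± 19.6 CPM with DMSO (1.25, SE 0.13, adjusted p = 2.83e-04, edgeR). Neither was called in *tti2-CKO*, and the interaction of *tti2-CKO* minus *tra2-CKO* was −1.33 for *hsp90* (SE 0.15, adjusted p = 7.08e-05, edgeR) and −0.80 for *sti1* (SE 0.16, adjusted p = 0.00384, edgeR, kept in 7 of 12 fits with 1 library left out). The interaction of *tra2-CKO* minus *creER* was 0.94 for *hsp90* (SE 0.12, adjusted p = 0.00420, edgeR), a call kept in 3 of 12 fits with 1 library left out. For *sti1* it was 0.90 (SE 0.18, adjusted p = 0.0264, edgeR), not called by edgeR, but called by DESeq2 (adjusted p = 2.16e-04) and with the replicate block (adjusted p = 0.00288, edgeR). In *tti2-CKO* 0 of the 6 were called by edgeR and by DESeq2, with 3 at an unadjusted p under 0.05. Of the PIKK genes, 1 was called in *tra2-CKO*, the excised *tra2* itself, and of the 7 TOR complex partners 0 were called by either tool, with 3 at an unadjusted p under 0.05. Among INO80 and SWR1 genes, the remodellers that hold Rvb1 and Rvb2, 0 of 10 and 0 of 7 were called in *tra2-CKO* by edgeR and by DESeq2, with 5 and 4 at an unadjusted p under 0.05. In the interaction of *tti2-CKO* minus *tra2-CKO*, 6.11% of all genes were called. Of the lists, edgeR and DESeq2 each called 3 of 6 Hsp90 genes there, 1 of 10 INO80 genes and 0 of 7 SWR1 genes. Beside *hsp90* and *sti1*, edgeR called *wos2* (−0.60, SE 0.11, adjusted p = 0.00287, edgeR), kept in 8 of 12 fits with 1 library left out. The INO80 gene was *iec1* (0.73, SE 0.13, adjusted p = 0.00263, edgeR), kept in 12 of those 12 fits.

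In *spt20*Δ, which lacks the SAGA subunit that holds Tra1, *asa1* and *tti1* lay above WT without being called. *tti1* held 20.8, 23.2 and 18.5 CPM in *spt20*Δ, against 12.4, 13.3 and 17.1 CPM in WT. The groups did not overlap, and the change of 0.55 (SE 0.17) had an adjusted p of 0.0268 (edgeR) and was below 1.5-fold. Its log2 ratio of means was 0.74 with CPM from library totals, past 1.5-fold, and its change ran from 0.45 to 0.70 with 1 library left out, with adjusted p of 0.0104 to 0.102 (edgeR). *asa1* held 84.1, 74.7 and 76.5 CPM in *spt20*Δ, against 61.4, 65.2 and 62.5 CPM in WT, and every mutant library was above every WT library (0.31, SE 0.07, adjusted p = 0.00888, edgeR, 0.00136 to 0.0427 over the alternatives), with a log2 ratio of means of 0.32 under TMM and 0.52 with library totals. *tel2* held 51.6, 55.5 and 45.8 CPM in *spt20*Δ, against 44.0, 38.1 and 45.0 CPM in WT (0.26, SE 0.10, adjusted p = 0.0694, edgeR). Thus 0 of the 6 were called by edgeR and by DESeq2, 3 had an unadjusted p under 0.05, and 12.8% of 4920 genes were called.

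The Rvb genes gave no firm direction in *spt20*Δ. *rvb1* held 297, 291 and 277 CPM in *spt20*Δ and 308, 313 and 312 CPM in WT. Those libraries did not overlap, but the change of −0.11 (SE 0.06, adjusted p = 0.153, edgeR) turned positive, to 0.09, when CPM were taken from library totals without TMM, a scaling that shifts all genes by 0.20 in this comparison. *rvb2* behaved likewise, with −0.07 (SE 0.06, adjusted p = 0.398, edgeR) under TMM and 0.13 under library totals. In all, 4 of the 6 had groups that did not overlap, beside 55.6% of all genes, and 2, *tti1* and *asa1*, had an adjusted p of 0.05 or less, beside 45%. Of the Hsp90 list, 3 of 6 were called higher in *spt20*Δ, *hsp90* (1.03), *wos2* (0.82) and *aha1* (0.62), with adjusted p of 0.00162, 6.73e-04 and 0.00544 (edgeR), beside 7.09% of all genes called higher, and the count ran from 1 to 4 with 1 library left out. Of the snoRNP list, 3 of 8 were called lower in *spt20*Δ, *nop10* (−0.73), *gar1* (−0.72) and *nop56* (−0.72), with adjusted p of 8.85e-04, 2.59e-04 and 2.42e-04 (edgeR), beside 5.73% of all genes called lower. The SWR1 gene *arp6* was called higher (0.65, adjusted p = 0.00203, edgeR), a call lost without WT replicate 1 or *spt20*Δ replicate 2. *hsp90* was not called without WT replicate 1 (adjusted p = 0.0122, edgeR), and *aha1* was called in 2 of 6 fits with 1 library left out. Of the PIKK, TOR partner and INO80 lists, edgeR and DESeq2 called 0 genes in *spt20*Δ, with 2, 2 and 3 at an unadjusted p under 0.05.

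In strains with altered Tra1, the client of TTT in SAGA, none of the 6 genes was called. The counts by edgeR and by DESeq2 were 0 of 6 in *tra1*Δ, *tra1-Sptra2*, *tra1-Sctra1* and *spt20-HIT*Δ, where 2.47%, 3.71%, 0.286% and 0.368% of genes were called. Of the listed partner genes, *tra1* itself in *tra1*Δ was the only one called in these 4 strains. In *tra1-Sctra1* the share above is 14 genes, or 2 with the replicate block. An unadjusted p under 0.05 was reached by 1 gene each in *tra1*Δ and *tra1-Sptra2* and by 0 in the other strains. That gene was *rvb2*, which held 344, 323 and 336 CPM in *tra1*Δ and 342, 329 and 339 CPM in *tra1-Sptra2*, against 308, 292 and 292 CPM in WT. Both mutants lay above WT without overlap, by 0.18 in *tra1*Δ (SE 0.07, adjusted p = 0.129, edgeR) and 0.18 in *tra1-Sptra2* (SE 0.05, adjusted p = 0.0429, edgeR). *rvb2* was also above WT by 0.14 in *tra1-Sctra1*, with overlap (SE 0.07, adjusted p = 0.420, edgeR). In *spt20-HIT*Δ it was above by 0.11, without overlap (SE 0.07, adjusted p = 0.392, edgeR). The WT mean of *rvb2*, 298 CPM, was below the DMSO means of *creER* (324 CPM), *tra2-CKO* (322 CPM) and *tti2-CKO* (309 CPM). In *tra1-Sptra2* it was the only one of the 6 with an adjusted p of 0.05 or less, beside 24.2% of all genes. *rvb1* was 0.18 above WT in *tra1-Sctra1* (SE 0.09, adjusted p = 0.391, edgeR), at 333, 396 and 321 CPM, against 308, 313 and 312 CPM in WT. In *spt20-HIT*Δ all 6 genes had changes between 0.07 and 0.21 with adjusted p from 0.356 to 0.623 (edgeR), and the shift between scalings there was 0.10. Groups did not overlap for 1 gene in *tra1*Δ, 2 in *tra1-Sptra2*, 1 in *tra1-Sctra1* and 2 in *spt20-HIT*Δ, beside 32.6%, 44.5%, 19.9% and 29.1% of all genes.

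**Figure D4:**
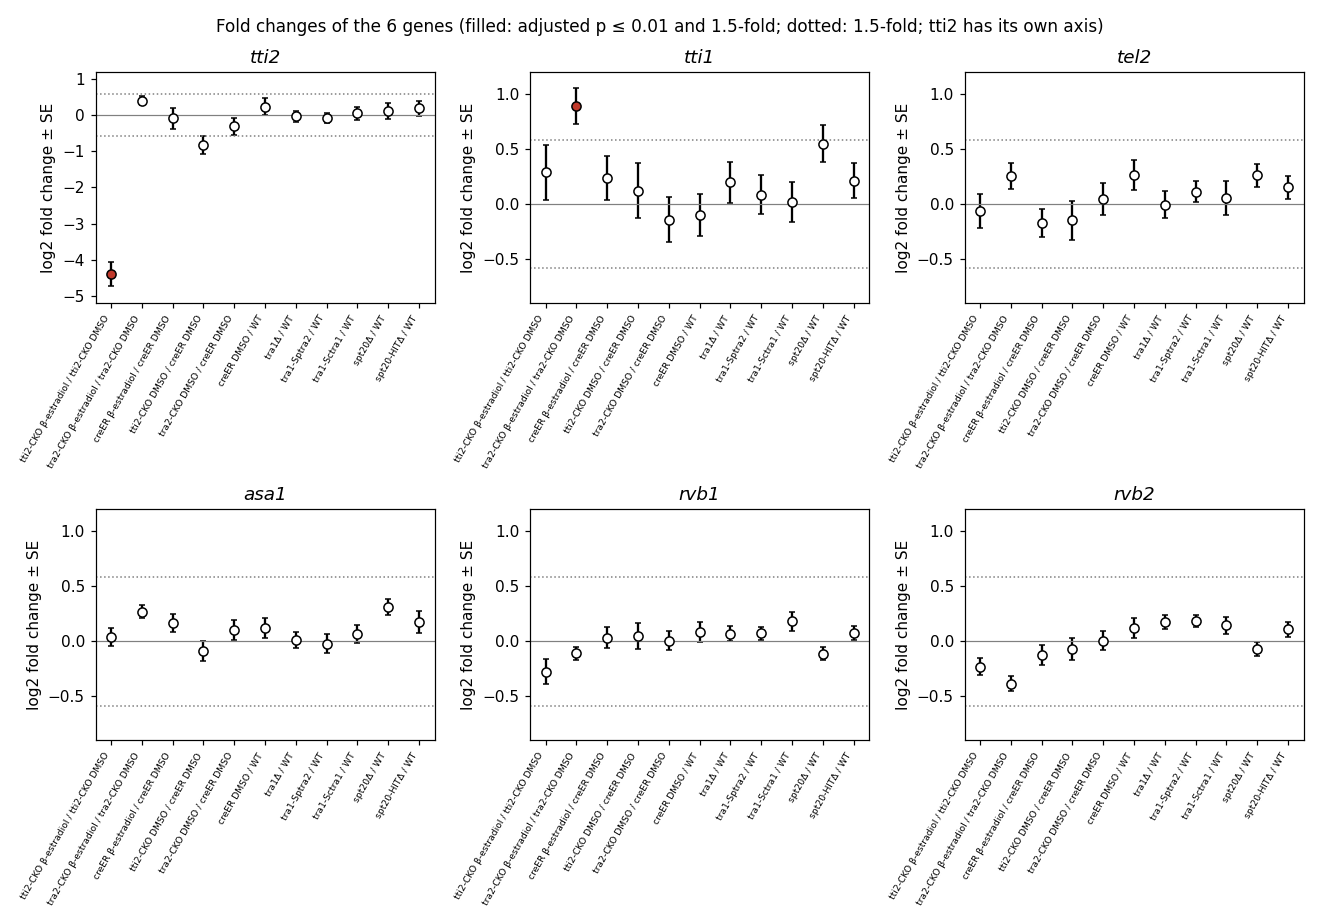
Log2 fold change with its SE (vertical axis) of each of the 6 genes in the 11 comparisons (horizontal axis, the first named condition over the second). Filled points passed an adjusted p of 0.01 and a 1.5-fold change (dotted lines) in edgeR, and *tti2* has an axis of its own. The filled points are *tti2* in *tti2-CKO*, at −4.39, and *tti1* in *tra2-CKO*, at 0.89.

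The strains grown with DMSO give the baseline of the excision comparisons. Between *tra2-CKO* and *creER* with DMSO, edgeR called 0 of 4879 genes (0%), 260 had an unadjusted p under 0.05, and DESeq2 called 2, against 27 called with the replicate block. Of the 6 genes here, 0 were called by either tool, 0 had an unadjusted p under 0.05 and 0 had groups without overlap, beside 11.6% of all genes, and their changes lay between −0.31 for *tti2* and 0.10 for *asa1*. Between *creER* with DMSO and WT, 0 of the 6 were called by edgeR and by DESeq2, 0 had an unadjusted p under 0.05 and 0.307% of genes were called. There *tel2* held 46.4, 59.7 and 46.4 CPM in *creER* with DMSO, against 44.0, 38.1 and 45.0 CPM in WT (0.26, SE 0.14, adjusted p = 0.569, edgeR), and *rvb2* also had groups that did not overlap, 2 genes beside 16.9% of all genes. The comparison of *creER* with WT combines the strain with the solvent.

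The levels of these genes were also set side by side over the conditions. Across the means of the 12 conditions, Pearson's r of log2 CPM, given as a description over points that share TMM scaling, lay between 0.398 and 0.815 among *tti1*, *tel2* and *asa1*, with the highest value for *tel2* and *asa1*. For *rvb1* and *rvb2* it was 0.728. Between these sets it was negative for every pair, from −0.725 for *tti1* with *rvb2* to −0.328 for *tel2* with *rvb1*. *tti2* followed its own excision over 12 conditions, and over the 10 conditions without the *tti2-CKO* strain its r was 0.707 with *asa1*, 0.642 with *tel2*, 0.585 with *tti1* and −0.694 with *rvb2*.

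The transcripts with the most similar pattern were sought among the 4649 other genes averaging 10 CPM or more over all libraries. Over 12 conditions they were *med13* for *tti1* (r = 0.937), *pdh1* for *tel2* (0.950), *mit1* for *asa1* (0.938), *get3* for *rvb1* (0.945) and *hpt1* for *rvb2* (0.956). Each is the top of a search over all those genes, which selects for high r. The 12 means spanned 0.833 in log2 for *tti1*, 0.538 for *tel2*, 0.468 for *asa1*, 0.293 for *rvb1* and 0.471 for *rvb2*. Shared regulation was not tested. *med13* encodes a subunit of the Mediator kinase module and *mit1* a chromatin remodeller of the SHREC complex. The PIKK gene *tel1*, the ATM-like kinase and a client of TTT, was among the 3 most alike for *tti1* (0.897), and *rpb6*, a subunit shared by the RNA polymerases, was among the 3 most alike for *rvb2* (0.933). For *tti2*, *cmr2* came first over the 10 conditions without its own floxed strain (0.845). Over those 10 conditions other genes came first for the remaining members. They were *cwf16* for *tti1* (0.957), *msh3* for *tel2* (0.954), SPAC6F6.19 for *asa1* (0.970), *nup37* for *rvb1* (0.952) and *prp19* for *rvb2* (0.971). *tel1* was then no longer among the 3 most alike for *tti1*, nor *rpb6* for *rvb2*.

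Neighbours of the 6 genes, 4 for each, were compared in the same fits, where *tti2-CKO* cells had 12.8% of all genes called, *tra2-CKO* cells 10.1% and *spt20*Δ 12.8%. *psp3* beside *asa1* was called higher in *tti2-CKO* cells (0.87), *tra2-CKO* cells (0.69) and *spt20*Δ (0.69), with adjusted p of 2.78e-05, 7.57e-04 and 6.98e-04 (edgeR), and the call in *tra2-CKO* was lost without β-estradiol replicate 3. *min8* beside *rvb1* was called higher in *spt20*Δ (2.39, adjusted p = 5.27e-04, edgeR). Its levels were low, at 7.56 ± 1.54 CPM in *spt20*Δ and 1.42 ± 0.088 CPM in WT. In *tra2-CKO* they were 5.62 ± 1.38 CPM with β-estradiol and 1.97 ± 0.432 CPM with DMSO. SPCC622.15c beside *tti1* was called higher in *tra2-CKO* (0.70, adjusted p = 0.00181, edgeR), a call lost without β-estradiol replicate 2. In *tti2-CKO*, *gdh1* (−0.64) and SPCC622.14 (−0.60) beside *tti1* were called lower, each in 3 of the 6 fits with 1 library left out. In *tra2-CKO*, *mcp3* (0.94) and SPAC2E12.03c (0.70) beside *asa1* and *min8* (1.51) were called higher, each in 2 of those 6 fits. By edgeR and by DESeq2 0 of the 4 neighbours of *tel2* and 0 of the 4 of *rvb2* were called in these 3 comparisons, with 1 to 3 of each at an unadjusted p under 0.05. The interaction of *tti2-CKO* minus *creER* was called for *psp3* (0.61, adjusted p = 0.00393, edgeR), in 5 of 12 fits with 1 library left out. It was called for 0 of 4 genes beside *tti1* by either tool. For *tra2-CKO* minus *creER*, either tool called 0 of 4 beside each of *tti1*, *asa1* and *rvb1*. In *creER* itself, DESeq2 and the replicate block each called 1 of 4 beside *rvb1*, and edgeR without the block 0. Each of the 6 genes overlaps at least 1 annotated gene in ASM294v3, on the same strand for *tti1* and on the opposite strand for the others, and the counting kept the strands apart.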

How the data were processed

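Per the labels, polyadenylated RNA was sequenced as strand-specific single 50-base reads. The authors made the deposited counts, whole reads per gene, by aligning trimmed reads with HISAT2 2.1.0 and counting with HTSeq 0.9.1 (union mode, reverse strand, alignment quality of at least 10), and their processing notes also name bcl2fastq and DESeq2 1.18.1. Union mode drops reads that fall on overlapping genes of a strand. The genome build is not given in the sources used here, so that ASM294v3 served only for gene names (5111 of 5129 identifiers matched, 4261 with a symbol), lengths, overlaps and neighbours, and no coordinates or sequences are printed.

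Fits used the 6 libraries of a comparison (12 for an interaction, the response of a strain minus that of another) with edgeR 4.0.16 in R 4.3.3, using filterByExpr with a minimum count of 10, TMM scaling and the quasi-likelihood test, with Benjamini-Hochberg adjustment over all genes tested. The thresholds were an adjusted p of 0.01 and a fold of 1.5. The SE is the log2 fold change divided by the square root of F and may be too small where counts are few. Patterns were compared on log2(CPM + 1). The scripts were tested on simulated data.

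The 6 genes and the gene lists were chosen with earlier results of these data known. Listed genes were named where called in a comparison, at most 4 a list by size of change, or where a strain deletes or excises them, and the 3 most alike patterns were ranked by Pearson's r. *tra1* and *tra2* are named as such targets, and *gpi16* and *cmp7* were named as neighbours of the floxed gene after their values were seen. Same-numbered cultures deviated together in every pair (r above 0.1) in 5 of 11 comparisons, although no label gives the meaning of the numbers. These comparisons were those of *tra2-CKO* (0.131 to 0.203), *creER* (0.394 to 0.751), *tra2-CKO* against *creER* with DMSO (0.569 to 0.855), *tra1-Sctra1* (0.138 to 0.183) and *spt20*Δ (0.208 to 0.498). Their main fits nonetheless treated the libraries as unpaired, and the replicate block entered only as an alternative. The alternatives were DESeq2 1.42.0, RLE scaling, no low-count filter, each library left out, the replicate number as a block, a joint fit of all 36 libraries, an adjusted p of 0.05 with no minimum fold, and CPM from library totals.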

Additional observations from a re-analysis of the deposited data

Results flagged for a closer look

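The response of *tti2* to β-estradiol differed between strains by a test of the difference itself. It was −4.29 for *tti2-CKO* minus *creER* (adjusted p = 4.47e-04, edgeR) and −4.75 for *tti2-CKO* minus *tra2-CKO* (adjusted p = 6.64e-07, edgeR), and *tti2* is the gene that *tti2-CKO* excises. The interactions of the other 5 genes were not called.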

How the results depend on the processing

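The calls of *tti2*, the gene that *tti2-CKO* excises, held in every alternative, and the call of *tti1* in *tra2-CKO* did not. *tti2* was called in *tti2-CKO* in 11 of 11 alternatives (−4.59 to −4.13) and its interactions in 17 of 17 each (−4.62 to −4.04 against *creER*, −4.98 to −4.50 against *tra2-CKO*). Under an adjusted p of 0.05 with no minimum fold, the number of genes called became 2 in *tti2-CKO*, 4 in *tra2-CKO*, 1 in *tra1-Sptra2* and 2 in *spt20*Δ, since that alternative admits smaller changes. With 1 library left out, the number called in *tra2-CKO* ran from 0 to 1, because *tti1* (0.78 to 1.03 over its alternatives) was called in 8 of 11. In *tti2-CKO*, the change of *tel2* ran from −0.20 to 0.12 with 1 library left out, and was 0.12 without DMSO replicate 3 and 0.03 without β-estradiol replicate 3, opposite in sign to the value with all libraries, and the cause was not tested. With the replicate block, *tti2* changed by −4.37 in *tti2-CKO*, and *tti1* by 0.90 and *rvb2* by −0.38 in *tra2-CKO*, and the block changed no call of the 6 genes. Over all genes it moved the count of calls to 110 in place of 18 in *spt20-HIT*Δ, where same-numbered cultures did not deviate together in every pair. Taking CPM from library totals moved 16 of the 72 condition means by more than their SD. Depth limits *tti2* after excision, at 2 to 5 counts a library.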
